A study of Drosophila melanogaster with 32 samples.

Results

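Reciprocal crosses between fruit fly populations that had evolved under promiscuity and under monogamy were compared by gene expression in the mated females. In P.M crosses a female of a promiscuous population was mated with a male of a monogamous one, and in M.P crosses a female of a monogamous population was mated with a male of a promiscuous one. The arrays were taken by their labelled combination of female and male regime, which gave 16 of the 32 arrays of the series, 8 of P.M and 8 of M.P. They came from 8 of 16 crosses, 4 of each kind, with 2 arrays per cross, labelled as biological replicates and as batches 1 and 2. Each cross has 1 array per batch, so batch and replicate cannot be told apart.

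All flies were Drosophila melanogaster descended from the LHM laboratory stock. In the 4 promiscuous populations flies were kept under the standard mating protocol of the stock, and in the 4 monogamous populations they mated once per generation. Crosses were made after 46 generations, and the females were frozen whole 6 h after mating. Populations are numbered 1 to 4 within each regime, and the reciprocal crosses of a number used the same 2 populations with the sexes exchanged. P.P crosses (promiscuous female and male of 1 population) and M.M crosses (monogamous female and male of 1 population), 8 arrays of each, are used for comparison. The populations are laboratory stocks that had diverged by selection and drift, so a population and its regime are separated only by the 4 numbers. The female's and the male's regime both change between P.M and M.P, and which of the sexes a difference goes with cannot be told apart in this comparison alone. The labels list the male's population under a repeated tag for the female's, and the male's regime was read from the label of the combination.

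Mating changes the state of a female fly within hours. Sperm and seminal fluid proteins made in the male accessory gland, among them the sex peptide, raise egg production, alter feeding and gut activity, lower receptivity to further males and set off immune gene expression. Under promiscuity, males compete through their ejaculates and females bear the costs of repeated mating, while lifelong monogamy removes both. Crosses between regimes place each female with ejaculate from the other history.

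Values are the deposited log2 signals, in which a difference of 1 is a doubling of signal. A cross value is the mean of its 2 arrays, differences are P.M minus M.P, and n counts crosses. Each difference was tested with limma on the 4 differences within numbers, two-sided, with p-values adjusted over 18769 probe sets. Array medians lay between 5.39 and 5.49 over the 32 arrays. In whole flies, fewer cells of a type and less RNA per cell cannot be told apart. Transcripts of adult females were high on all 16 arrays: Yp1, a yolk protein, lay between 14.68 and 14.79, and osk, a maternal transcript of the oocyte, between 10.20 and 12.94 over its 3 probe sets. The transcripts of male accessory gland and testis taken as markers were near the low end of the table, which starts at 2.27. Acp26Aa lay between 2.57 and 2.98 and dj between 2.62 and 2.96.

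The reciprocal crosses were close to each other across the whole array. The root mean square distance between the reciprocal cross means of a number was 0.191, 0.226, 0.212 and 0.213 log2 units in numbers 1 to 4. P.M and M.P crosses of different numbers were 0.183 to 0.240 apart. P.M crosses among themselves were 0.182 to 0.213 apart, M.P crosses 0.206 to 0.225, and the own-population crosses of a number 0.203 to 0.223. These ranges overlap. The median absolute difference of a probe set was 0.06, and 1% of probe sets lay beyond 0.41. Differences over 0.5 were found at 117 probe sets and over 1 at 17, of which 12 were higher and 5 lower in P.M.

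No probe set reached an adjusted p of 0.05 (0 of 18769, 0% called), and the smallest adjusted p was 0.204, shared by CG7214 and tobi. An unadjusted p under 0.05 was found at 1885 probe sets, of which 893 (4.76%) were higher and 992 (5.29%) lower in P.M. By chance 938 (5%) would be expected for both directions together, so each direction alone stood near the chance share for both. The cause of this excess was not tested. The 4 P.M crosses lay wholly above the 4 M.P crosses at 522 probe sets (2.78%) and wholly below them at 595 (3.17%). In what follows, genes and groups are described by their values, and no gene named from this comparison passed the adjusted threshold. Group counts at an unadjusted p under 0.05 are to be read beside 4.76% higher and 5.29% lower over all probe sets. Counts without overlap are to be read beside 2.78% and 3.17%. With the population number left out of the fit, 0 probe sets passed and the smallest adjusted p was 0.374.

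**Figure D1:**
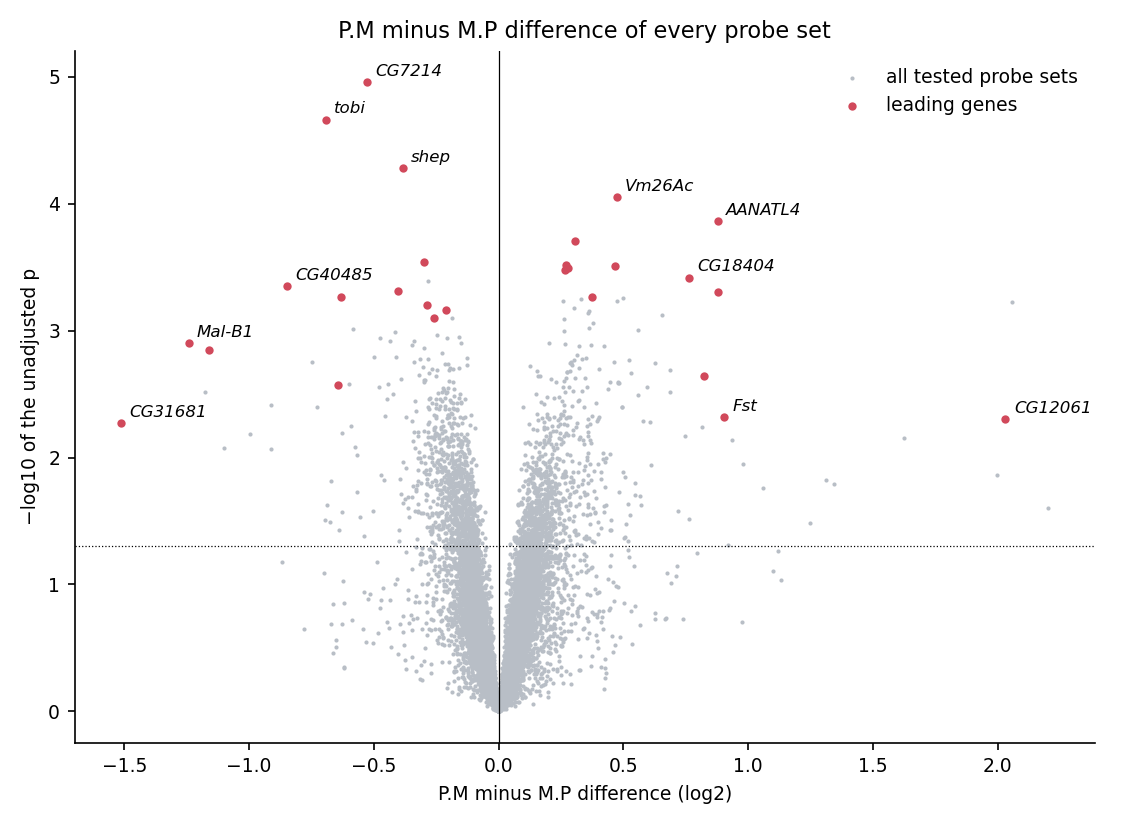
P.M minus M.P difference of every tested probe set (log2, horizontal) against −log10 of its unadjusted p from limma (vertical), with the leading genes in red and the dotted line at a p of 0.05. CG7214 and tobi stand highest at differences of -0.53 and -0.69, and CG12061 and CG31681 are among the farthest out at 2.03 and -1.51.

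Maltases, which split dietary disaccharides in the gut, stood on the lower side. tobi, an alpha-glucosidase known as a target of brain insulin, had 9.37, 9.18, 9.87 and 9.97 in P.M crosses 1 to 4, against 10.30, 9.81, 10.47 and 10.57 in M.P crosses 1 to 4. It was lower in P.M in all 4 numbers, by -0.93 in number 1 and by -0.60 to -0.63 in the others, although the kinds of cross overlapped because the numbers differed in level (difference -0.69, SE 0.06, adjusted p = 0.204). Mal-B1 had 6.96, 6.31, 5.84 and 6.32 in P.M crosses, against 7.49, 7.55, 7.95 and 7.41 in M.P crosses, with no overlap (difference -1.24, SE 0.23, adjusted p = 0.402). Mal-A7 averaged 8.02 ± 0.54 in P.M crosses and 8.65 ± 0.28 in M.P crosses (SD, n = 4 each), a difference of -0.63. Mal-A1 averaged 11.47 ± 0.45 in P.M crosses and 12.05 ± 0.39 in M.P crosses (SD, n = 4 each), a difference of -0.58. Both were lower in P.M in all 4 numbers, and Mal-A1 differed by -0.59 in batch 1 and by -0.58 in batch 2.

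The group of gut digestive enzymes held these maltases beside trypsins, Jonah proteases and lysozymes, and the 2 sides did not go together. Among its 39 probe sets, 7 (17.9%) were higher and 7 (17.9%) lower in P.M at an unadjusted p under 0.05. All 7 lower ones were maltases or tobi, among them Mal-A6 at -1.18. The higher ones were proteases, such as Jon25Bii at 0.37 and lambdaTry at 0.13, which, with Mal-A6, are named here after their values were seen. The median difference of the group was 0.08, against 0.01 over all probe sets.

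Genes of nutrient signalling and lipid handling leaned the same way as the maltases in part. InR, the insulin receptor, had 7.81, 8.02, 8.05 and 8.24 in P.M crosses, against 8.29, 8.42, 8.35 and 8.42 in M.P crosses. Every P.M cross was below every M.P cross (difference -0.34, SE 0.06, adjusted p = 0.402). Akt, the kinase downstream of it, averaged 9.50 ± 0.08 in P.M crosses and 9.80 ± 0.18 in M.P crosses (SD, n = 4 each), with a difference of -0.01 in number 1. On the other side, Ilp5, an insulin-like peptide, was higher in P.M by 0.24 and daw, an Activin-type ligand, by 0.19, each in all 4 numbers. Of 17 probe sets of the insulin group, 2 (11.8%) were higher and 3 (17.6%) lower at an unadjusted p under 0.05, and the median was -0.08.

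Desat1, a fatty acid desaturase, had 12.24, 12.09, 12.24 and 12.32 in P.M crosses, against 12.33, 12.39, 12.39 and 12.57 in M.P crosses, with no overlap (difference -0.20, SE 0.04, adjusted p = 0.402). AcCoAS, which makes acetyl-CoA, differed by -0.20 and also did not overlap. LpR2, a lipophorin receptor, differed by -0.27 and overlapped. wat, a fatty acyl-CoA reductase, went the other way at 0.25, higher in P.M without overlap. Of the whole lipid group, 12 probe sets were above 0 and 15 below. In the lipid group of 27 probe sets, 2 (7.41%) were higher and 6 (22.2%) lower in P.M at an unadjusted p under 0.05, and 3 (11.1%) lay wholly below without overlap. The medians by number were -0.07, -0.03, -0.08 and 0.08, so that number 4 went the other way.

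**Figure D2:**
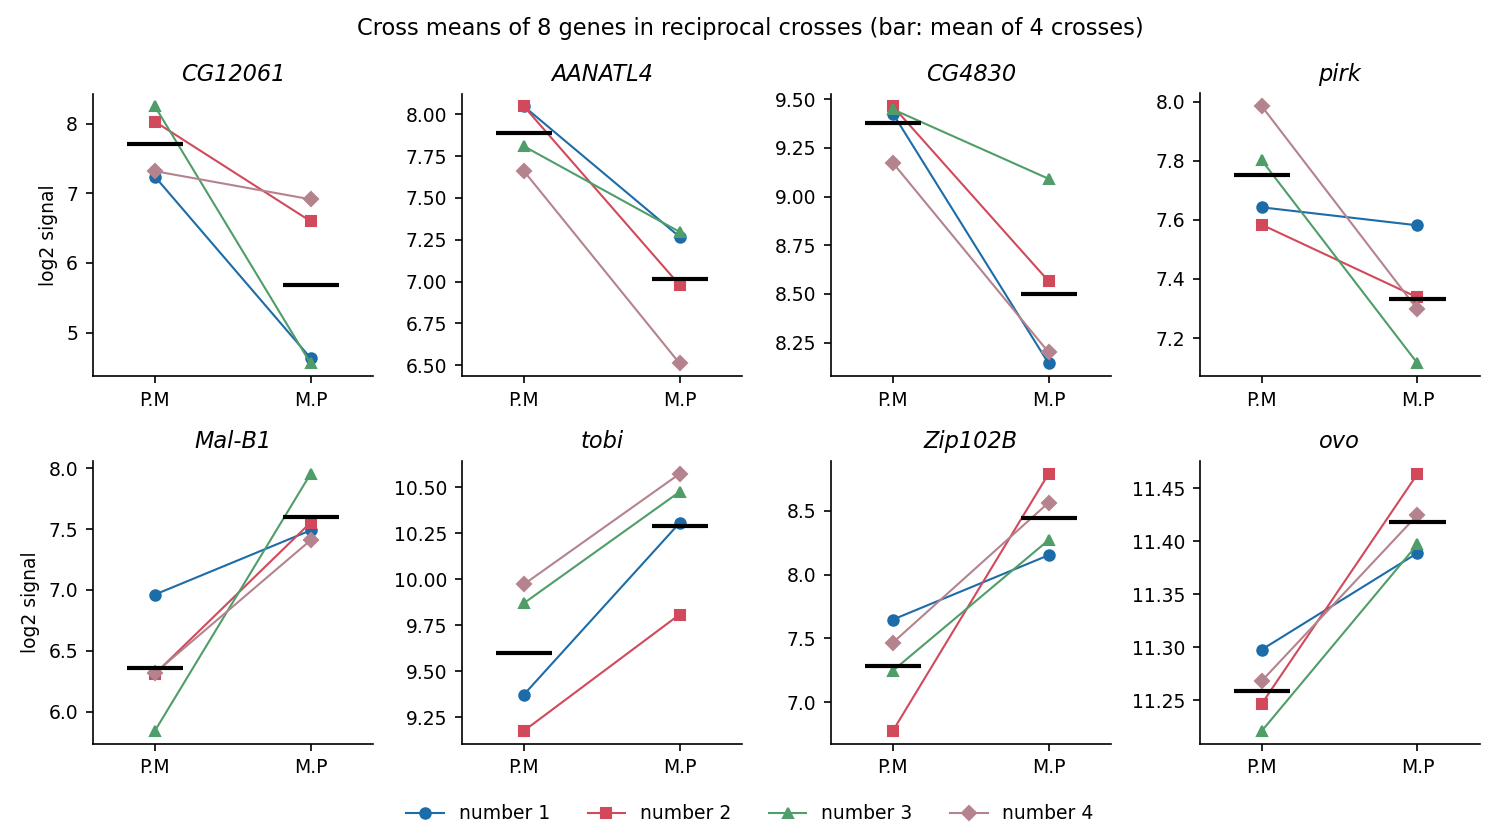
Log2 signal of 8 genes in the 4 P.M crosses (left in each panel) and the 4 M.P crosses (right), each point the mean of 2 arrays, lines joining the reciprocal crosses of a number and bars at the mean of 4 crosses; vertical scales differ between panels. All 4 lines run the same way in each panel, and the steps differ in length, from 0.40 to 3.69 for CG12061.

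Larger differences stood at single genes. CG12061 had 7.24, 8.03, 8.25 and 7.32 in P.M crosses, against 4.63, 6.60, 4.56 and 6.91 in M.P crosses. The P.M crosses were all higher, and the 4 M.P crosses fell into a low and a higher pair, so the error was wide (difference 2.03, SE 0.49, adjusted p = 0.402). CG31681 had 9.37, 7.65, 9.74 and 8.69 in P.M crosses, against 10.76, 10.66, 10.18 and 9.91 in M.P crosses, with no overlap (difference -1.51, SE 0.37, adjusted p = 0.402). CG32751, named here after its value was seen, differed by 2.06 with an SE of 0.33.

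AANATL4, a member of the arylalkylamine N-acetyltransferase family, had 8.05, 8.05, 7.81 and 7.66 in P.M crosses, against 7.27, 6.98, 7.30 and 6.51 in M.P crosses (difference 0.88, SE 0.11, adjusted p = 0.402). The crosses did not overlap, and the difference was 0.72 in batch 1 and 1.04 in batch 2. CG4830 averaged 9.38 ± 0.14 in P.M crosses and 8.50 ± 0.44 in M.P crosses (SD, n = 4 each), and CG18404 averaged 11.33 ± 0.17 in P.M crosses and 10.57 ± 0.47 in M.P crosses (SD, n = 4 each). Fst, a gene induced by cold, averaged 8.78 ± 0.46 in P.M crosses and 7.88 ± 0.47 in M.P crosses (SD, n = 4 each). Npc2c, of the NPC2 sterol-binding family, averaged 6.87 ± 0.20 in P.M crosses and 6.05 ± 0.49 in M.P crosses (SD, n = 4 each). None of these 4 genes overlapped between the kinds of cross.

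Smaller differences were also found. CG7084 differed by 0.28 in each batch, CG32483 by 0.31 over both, and CG42369 by 0.38. CG7443 differed by 0.27 with 0.44 in batch 1 and 0.09 in batch 2, and CG9826 by 0.47. On the lower side, CG3609 differed by -0.29, Vps11, a subunit of the vesicle tethering complexes at the lysosome, by -0.21, and Nadsyn, the NAD synthetase, by -0.26. Try29F, a trypsin-type gene, differed by -0.64 and Spn47C, a serpin, by -0.42. CG7214 had 8.46, 8.51, 8.46 and 9.38 in P.M crosses, against 9.0, 9.04, 9.05 and 9.83 in M.P crosses, a close shift in every number (difference -0.53, SE 0.04, adjusted p = 0.204). Its difference was -0.19 in batch 1 and -0.87 in batch 2.

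Probe sets of 1 gene did not always go together. shep, which encodes an RNA-binding protein of neurons, differed by -0.38 without overlap at 1 probe set, and by 0.04, -0.03 and -0.16 at its others. oaf differed by -0.30 at 1 probe set, and by -0.09 and 0.07 at its others. CG40485 differed by -0.85 and 0.21, and CG1674 by -0.40 and -0.09. tim, a clock gene, differed by 0.48 at a probe set averaging 5.29 in P.M crosses and by -0.02 at another averaging 9.01. Sxl, the switch gene of sex determination, differed by -0.38, -0.16 and -0.02.

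Zinc transporters of the ZIP family held differences in both directions. Zip102B had 7.65, 6.78, 7.25 and 7.47 in P.M crosses, against 8.15, 8.79, 8.27 and 8.56 in M.P crosses, all lower in P.M (difference -1.16, SE 0.22, adjusted p = 0.402). Zip42C.1 had 5.87, 5.53, 5.96 and 5.16 in P.M crosses, against 4.90, 5.03, 5.15 and 4.80 in M.P crosses, all higher in P.M (difference 0.65, SE 0.11, adjusted p = 0.402). Zip42C.2 differed by 0.61 and Zip99C by 0.28, both in all 4 numbers. Of the 17 probe sets of zinc transporters, 4 (23.5%) were higher and 2 (11.8%) lower in P.M at an unadjusted p under 0.05.

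Genes of the female germline were slightly lower in P.M crosses almost throughout. Of 42 probe sets from 35 genes, 35 (83.3%) were below 0, against 45.0% of all probe sets, and the median difference was -0.08. Of these, 16 (38.1%) had an unadjusted p under 0.05, all lower, and 5 (11.9%) lay wholly below without overlap. With each number left out in turn, 7 to 16 of the 42 had an unadjusted p under 0.05, all lower, with the 7 found without number 3 and 9 without number 2. The medians of numbers 1 to 4 were -0.05, -0.08, -0.12 and -0.08, and those of batches 1 and 2 were -0.07 and -0.09. The differences were small in size, and they lay between -0.40 and 0.08. The mean level over the 42 probe sets was 9.23 to 9.31 in the 4 P.M crosses, against 9.35 to 9.38 in the 4 M.P crosses.

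del, which works in the piRNA pathway against transposons, had 10.55, 10.56, 10.43 and 10.58 in P.M crosses, against 10.67, 10.74, 10.69 and 10.85 in M.P crosses, with no overlap (difference -0.21, SE 0.04, adjusted p = 0.402). ovo, a transcription factor of the germline, had 11.30, 11.25, 11.22 and 11.27 in P.M crosses, against 11.39, 11.46, 11.40 and 11.42 in M.P crosses, with no overlap (difference -0.16, SE 0.03, adjusted p = 0.402). swa, needed to place the bcd messenger RNA in the oocyte, differed by -0.13 without overlap, and orb, a translational regulator, by -0.19 with overlap. All 3 probe sets of osk were lower in P.M, by -0.18, -0.09 and -0.12, and vas, the germ plasm helicase, was at -0.00. osk and vas were picked from the group after their values were seen.

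Cell cycle and replication genes, whose transcripts are abundant in ovaries, showed the same lean. Of 25 probe sets, 22 (88.0%) were below 0, the median was -0.06, and 5 of the 25 had an unadjusted p under 0.05, all lower. CycE, the cyclin of entry into S phase, had 10.66, 10.44, 10.59 and 10.74 in P.M crosses, against 10.80, 11.00, 10.86 and 10.90 in M.P crosses, with no overlap (difference -0.28, SE 0.07, adjusted p = 0.402). CycD differed by -0.17 and twe, the Cdc25 phosphatase of meiosis, by -0.27, both without overlap, and CycB differed by -0.11. Mcm5, a subunit of the replicative helicase, differed by -0.03 with an SE of 0.05. The medians of numbers 1 to 4 were -0.04, -0.12, -0.06 and -0.04.

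Yolk and eggshell genes, expressed in fat body and follicle cells, did not share this lean. The yolk and lipoprotein group of 10 probe sets had a median of 0.02, with 3 (30.0%) higher and none lower at an unadjusted p under 0.05. Without number 3 the count was 1 higher, and without number 4 it was 1 higher and 1 lower. Yp2 averaged 14.60 ± 0.05 in P.M crosses and 14.50 ± 0.07 in M.P crosses (SD, n = 4 each). The 21 eggshell probe sets had a median of 0.02, which was -0.13 in batch 1 and 0.16 in batch 2. Their mean level was 9.92 to 10.35 in P.M crosses, against 9.61 to 10.44 in M.P crosses. Vm26Ac, of the vitelline membrane protein family, had 8.94, 8.74, 7.94 and 8.44 in P.M crosses, against 8.47, 8.31, 7.32 and 8.06 in M.P crosses, higher in P.M in every number (difference 0.47, SE 0.06, adjusted p = 0.402). That difference was 0.18 in batch 1 and 0.77 in batch 2. Vm32E differed by 0.37, and Cp16, a chorion protein, by 0.28 with -0.28 in batch 1 and 0.83 in batch 2. The part that ovary size or the share of ovary in the body has in the germline and cell cycle values was not tested.

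Genes of the post-mating switch showed little. SPR, the sex peptide receptor, differed by 0.45 with an SE of 0.20 at 1 probe set, and by -0.02 at another that averaged 3.0 in P.M crosses. Mmp2, the metalloproteinase that opens the follicle at ovulation, differed by 0.13 at a probe set near the low end of the table. Send2, a spermathecal protease, had 7.71, 8.56, 5.91 and 6.11 in P.M crosses, against 7.70, 8.95, 5.20 and 9.04 in M.P crosses, and number 4 alone set the sign of its mean. Male accessory gland transcripts, which could reach the female with the ejaculate, were above 0 at 28 of 33 probe sets (84.8%), against 55.0% of all probe sets, with a median of 0.05. Of them 2 (6.06%) were higher at an unadjusted p under 0.05, near the 4.76% over all probe sets. After median centring of the arrays 23 of 33 were above 0. The mean level of the 33 was 3.91 to 3.97 in P.M crosses, against 3.87 to 3.93 in M.P crosses, close to the low end of the table. Of the 2 higher ones, Ebp averaged 3.34 in P.M crosses and 3.24 in M.P crosses. The other, EbpIII, averaged 12.97 and 12.90 in that order, far above the low end.

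**Figure D3:**
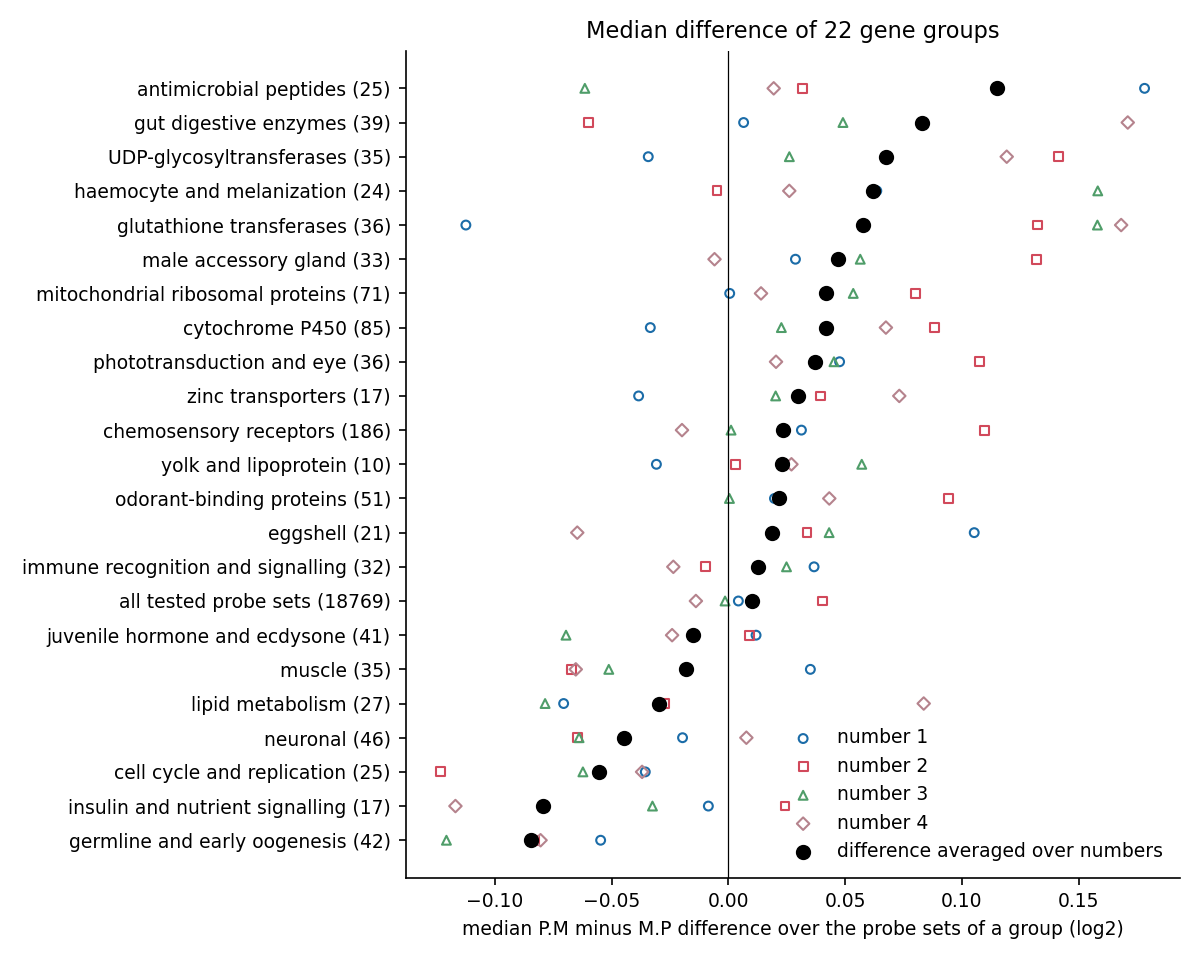
Median P.M minus M.P difference (log2, horizontal) over the probe sets of 22 gene groups and of all probe sets, with the number of probe sets in brackets; filled points are medians of the difference averaged over numbers, and open points are medians within numbers 1 to 4. Germline and cell cycle genes lie below 0 in all 4 numbers, at -0.08 and -0.06 over the 4, while antimicrobial peptides at 0.11 spread over both sides.

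Several genes of the Imd response to bacterial peptidoglycan had higher values in P.M crosses. The wider group of recognition and signalling genes went both ways. pirk, an inhibitor of that pathway, had 7.64, 7.58, 7.80 and 7.98 in P.M crosses, against 7.58, 7.34, 7.11 and 7.30 in M.P crosses. The lowest P.M cross and the highest M.P cross touched at 7.58 without overlap (difference 0.42, SE 0.12, adjusted p = 0.424). PGRP-LB, an amidase that degrades peptidoglycan, averaged 7.76 ± 0.12 in P.M crosses and 7.40 ± 0.23 in M.P crosses (SD, n = 4 each), a difference of 0.36. PGRP-SB1, another peptidoglycan recognition protein, averaged 9.44 ± 0.44 in P.M crosses and 9.04 ± 0.33 in M.P crosses (SD, n = 4 each), higher in 3 of 4 numbers. nec, a serpin that holds back the Toll pathway, differed by 0.16. Of 32 recognition and signalling probe sets, 5 (15.6%) were higher and 1 (3.13%) lower at an unadjusted p under 0.05, with a median of 0.01. Without number 1 these counts were 4 higher and 4 lower, and without number 4 they were 6 higher and 0 lower. In all, 18 were above 0 and 14 below, from -0.43 to 0.42. The medians of numbers 1 to 4 were 0.04, -0.01, 0.02 and -0.02.

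Antimicrobial peptides had a median difference of 0.11 over 25 probe sets, 3 (12.0%) of them higher at an unadjusted p under 0.05 and none without overlap. IM33 differed by 0.12, BomS5, a Bomanin, by 0.19, and edin, whose P.M crosses lay at 4.08 to 4.83, under the array medians, by 0.14. The medians of numbers 1 to 4 were 0.18, 0.03, -0.06 and 0.02, and batch 2 alone gave 0.01. The list holds Dsor1, a kinase that entered by its name, at -0.01. Among blood cell and melanization genes, NimC1, a phagocytosis receptor, differed by 0.24 and NimB2 by 0.17. PPO3, a prophenoloxidase, differed by -0.25 without overlap and crq, a scavenger receptor, by -0.15. The M.P crosses of PPO3 lay at 4.34 to 4.40, also under the array medians. Of 24 probe sets in that group, 3 (12.5%) were higher and 2 (8.33%) lower at an unadjusted p under 0.05.

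Detoxification genes leaned higher in P.M crosses, except in number 1. GstE10, a glutathione transferase, had 9.0, 9.05, 8.94 and 8.74 in P.M crosses, against 8.45, 8.69, 8.68 and 8.46 in M.P crosses, with no overlap (difference 0.36, SE 0.06, adjusted p = 0.402). GstE5 differed by 0.38 and GstD6 by 0.15. Of 36 glutathione transferase probe sets, 7 (19.4%) were higher and 2 (5.56%) lower at an unadjusted p under 0.05, with medians of -0.11, 0.13, 0.16 and 0.17 in numbers 1 to 4. Ugt37B1, a glycosyltransferase, averaged 6.80 ± 0.26 in P.M crosses and 6.32 ± 0.16 in M.P crosses without overlap (SD, n = 4 each), and 4 (11.4%) of 35 UDP-glycosyltransferase probe sets were higher with 2 (5.71%) lower. Cyp6a2, a cytochrome P450 known from insecticide resistance, differed by 0.43 and Cyp4p3 by 0.44, while Cyp309a2 differed by -0.30. Of 85 cytochrome P450 probe sets, 8 (9.41%) were higher and 3 (3.53%) lower. Members of these families lie in clusters of similar copies, and their probe sets may share signal.

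In the eye, retinin, a protein of the corneal lens, had 11.47, 11.64, 11.65 and 11.58 in P.M crosses, against 11.29, 11.38, 11.41 and 11.19 in M.P crosses, with no overlap (difference 0.27, SE 0.04, adjusted p = 0.402). chp, a photoreceptor adhesion protein, differed by 0.27 without overlap, and trpl, a channel of phototransduction, by 0.19. Galphaq, the G protein of phototransduction, differed by -0.25 at 1 probe set, and by -0.05 and 0.13 at its others. Of 36 eye probe sets from 21 genes, 6 (16.7%) were higher and 1 (2.78%) lower at an unadjusted p under 0.05. Without number 2 the counts were 2 higher and 2 lower, and with each number left out the higher count ran from 2 to 8. Among odorant-binding proteins, Obp19d differed by 0.39, Obp56d by 0.30 and Obp56b by 0.24, each in all 4 numbers, and Obp56g by -0.19. In that group 4 of 51 (7.84%) were higher and 1 (1.96%) lower. Chemosensory receptors, at 10 of 186 (5.38%) higher and 2 (1.08%) lower, stood near the share over all probe sets on the higher side.

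Hormone genes went both ways. Jhe, the esterase that breaks down juvenile hormone, differed by 0.40, and MsrA, a methionine sulfoxide reductase induced by ecdysone, by 0.33 without overlap. EcR, the ecdysone receptor, differed by -0.25 and Hr3, a nuclear receptor that it induces, by -0.27 without overlap. Of 41 probe sets, 4 (9.76%) were higher and 6 (14.6%) lower at an unadjusted p under 0.05. MsrA differed by 0.01 in batch 1 and by 0.65 in batch 2.

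Muscle and neuronal genes had medians just below 0. sls, the titin-like protein of muscle, differed by -0.32, -0.27 and -0.14 at 3 probe sets, and bt, the related projectin, by -0.09. Act88F, the flight muscle actin, was at 0.37. Of 35 muscle probe sets, 1 (2.86%) was higher and 4 (11.4%) lower at an unadjusted p under 0.05, with a group median of 0.06 for batch 1 alone and -0.10 for batch 2 alone. Neuronal genes had a median of -0.04, with 34 of 46 probe sets (73.9%) below 0, against 45.0% of all probe sets. Only 1 (2.17%) was lower at an unadjusted p under 0.05, under the 5.29% over all probe sets. Mitochondrial ribosomal protein genes were above 0 at 63 of 71 probe sets (88.7%), against 55.0% of all probe sets. Of them 4 (5.63%) were higher at an unadjusted p under 0.05, near the 4.76% over all probe sets, with a median of 0.04 that was -0.00 in batch 1 and 0.09 in batch 2.

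The same populations were then compared in their own-population crosses, as P.P minus M.M, to ask whether a reciprocal difference departs from the difference between regimes when both sexes are of 1 population. No arrays are shared between these comparisons, but the populations are. The own-population minus reciprocal difference equals the signal with promiscuous males minus that with monogamous males, summed over females of both regimes. At an adjusted p of 0.05 it called 0 probe sets (0%), with the smallest adjusted p at 0.173, and 1934 had an unadjusted p under 0.05. Of those, 1069 (5.7%) were higher and 865 (4.61%) lower in own-population crosses.

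The 27 leading probe sets, chosen for their small p or large size in the reciprocal comparison, all had the same sign in own-population crosses. The own-population difference was between 0.8 and 1.25 times the reciprocal one at 12 of them, smaller at 13 and larger at 2. The share of all probe sets with the same sign in both comparisons was not counted. The 2 comparisons also use the same populations, so the shared sign is not an independent repeat. Choice by the reciprocal values favours large reciprocal differences, so these counts do not compare the sizes in the 2 kinds of cross. Mal-B1 differed by -1.20 in own-population crosses and -1.24 in reciprocal crosses, and Zip102B by -1.0 and -1.16 in that order. CG12061 differed by 1.99 in own-population crosses against 2.03 in reciprocal crosses, CG31681 by -1.69 against -1.51, and AANATL4 by 0.92 against 0.88. tobi differed by -0.99 in own-population crosses against -0.69 in reciprocal crosses, and Mal-A7 by -0.90 against -0.63. Smaller in own-population crosses were shep (-0.14 against -0.38), Fst (0.50 against 0.90) and Npc2c (0.55 against 0.82). Desat1 (-0.19 against -0.20), LpR2 (-0.28 against -0.27) and chp (0.29 against 0.27) were likewise near in value. In the own-population comparison itself 1 probe set (0.00533%) was called at an adjusted p under 0.05, which has no gene name here and stood at 0.85 in own-population crosses and 0.69 in reciprocal crosses.

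**Figure D4:**
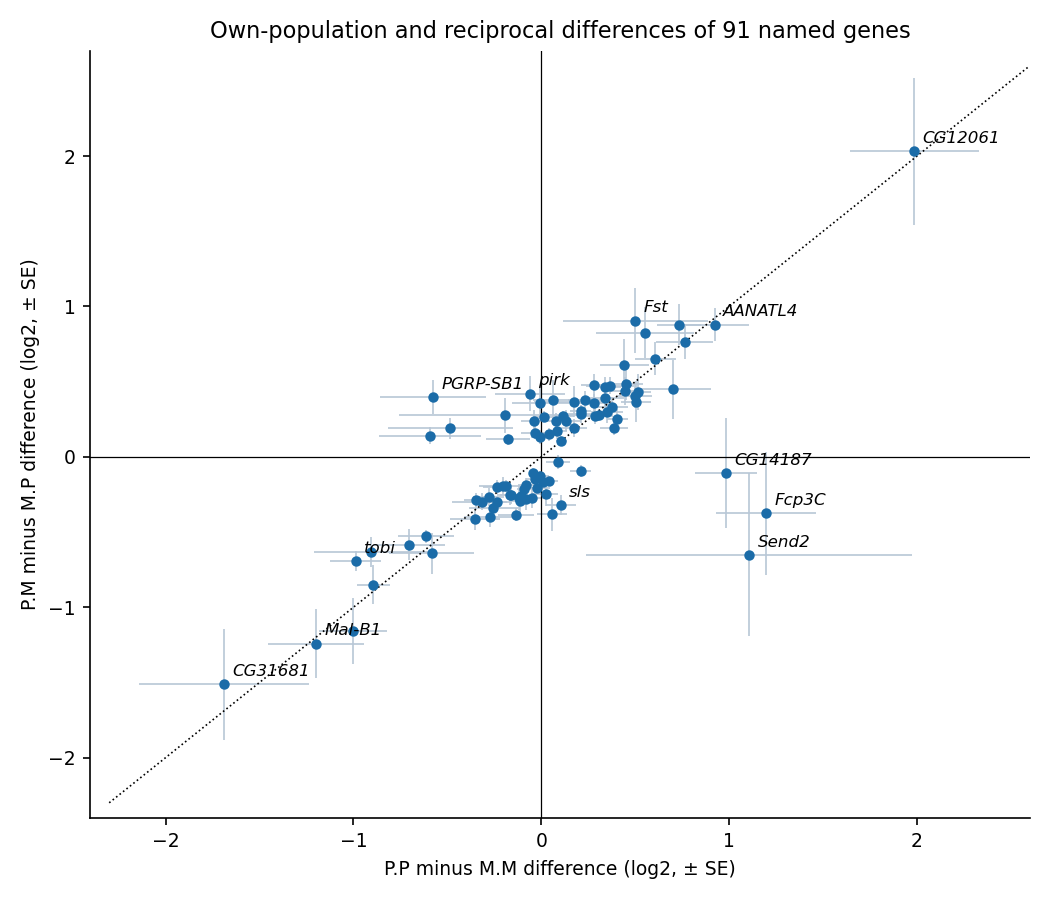
P.P minus M.M difference (horizontal) and P.M minus M.P difference (vertical) of 91 named genes, both log2 with standard errors, and a dotted line where they are equal. Mal-B1, CG12061 and CG31681 lie near the line, while Fcp3C and CG14187, at 1.20 and 0.98 in own-population crosses, lie far from it.

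The germline and cell cycle groups had medians near 0 in the own-population crosses and below 0 in the reciprocal crosses. The germline median was 0.01 in own-population crosses, with 25 of 42 probe sets above 0, against -0.08 in reciprocal crosses. The own-population minus reciprocal difference had an unadjusted p under 0.05 at 15 of the 42 (35.7%), all higher in own-population crosses. Over all probe sets 5.7% were higher. The tested difference subtracts the reciprocal values, which had already been seen to be low in the germline and cell cycle groups. A count on the higher side is therefore favoured in advance for these 2 groups. For groups seen to be high in reciprocal crosses, a count on the lower side is favoured likewise. The germline count was 5 without number 3. The own-population medians of numbers 1 to 4 were 0.08, -0.05, 0.02 and -0.05. ovo differed by 0.04 in own-population crosses and -0.16 in reciprocal crosses, a change of 0.20 with an adjusted p of 0.317. The cell cycle median was 0.01 in own-population crosses against -0.06 in reciprocal crosses. Of its probe sets 6 of 25 (24.0%) had an unadjusted p under 0.05, all higher in own-population crosses, against 5.7% of all. The cell cycle count was 3 without number 1 and 2 without number 2. In muscle, 10 of 35 (28.6%) were higher in own-population crosses at an unadjusted p under 0.05, against the same 5.7%. There bt differed by 0.21 in own-population crosses against -0.09 in reciprocal crosses (adjusted p = 0.173 for the difference).

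The medians of antimicrobial peptides lay on opposite sides of 0, and much of the own-population side came from number 1. Their median was -0.30 in own-population crosses, where 21 of 25 probe sets were below 0, against 0.11 in reciprocal crosses. The own-population medians of numbers 1 to 4 were -0.56, -0.00, -0.09 and -0.12. Without number 1 the median was -0.15 in own-population crosses and 0.02 in reciprocal crosses. The mean level of the 25 was 7.74 to 8.05 in the 4 P.P crosses, against 8.88, 8.07, 7.86 and 8.27 in M.M crosses 1 to 4, so M.M cross 1 was the highest. The own-population minus reciprocal difference had an unadjusted p under 0.05 at 9 of 25 (36.0%), all lower in own-population crosses. Over all probe sets 4.61% were lower. The antimicrobial count was 4 without number 1 and 15 without number 2 or without number 3. edin differed by -0.59 in own-population crosses and 0.14 in reciprocal crosses, PGRP-SB1 by -0.58 and 0.40 in that order, and pirk by -0.06 and 0.42. DptB, an antibacterial peptide named after its values were seen, differed by -1.22 in own-population crosses and 0.36 in reciprocal crosses. These own-population values rest in large part on M.M cross 1, where edin had 6.02, against at most 4.23 in the other M.M crosses, and PGRP-SB1 had 10.88, against at most 9.60. Without number 1 the own-population difference was -0.18 for edin, -0.23 for PGRP-SB1, 0.18 for pirk and -0.48 for DptB, and PGRP-SB1 was above 0 in number 3, at 0.46. None of these differences between the comparisons passed adjustment (adjusted p from limma 0.395 for edin, 0.383 for PGRP-SB1 and 0.328 for pirk). In the gut group 17 of 39 (43.6%) were lower in own-population crosses at an unadjusted p under 0.05, against 4.61% of all probe sets.

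Single genes also had unlike values in the 2 comparisons, and none of these differences passed adjustment. retinin and GstE5 were named for a small p in the reciprocal comparison, which favours a smaller value in own-population crosses. retinin differed by 0.01 in own-population crosses against 0.27 in reciprocal crosses (adjusted p = 0.173 for the difference), and GstE5 by 0.06 against 0.38. Fcp3C, a follicle cell protein, had 8.47, 7.70, 7.97 and 6.55 in P.M crosses, against 7.92, 8.89, 7.21 and 8.16 in M.P crosses, with 2 numbers on each side. It differed by 1.20 in own-population crosses against -0.37 in reciprocal crosses (adjusted p = 0.262 for the difference). CG14187 differed by 0.98 in own-population crosses against -0.11 in reciprocal crosses (adjusted p = 0.236 for the difference).

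**Figure D5:**
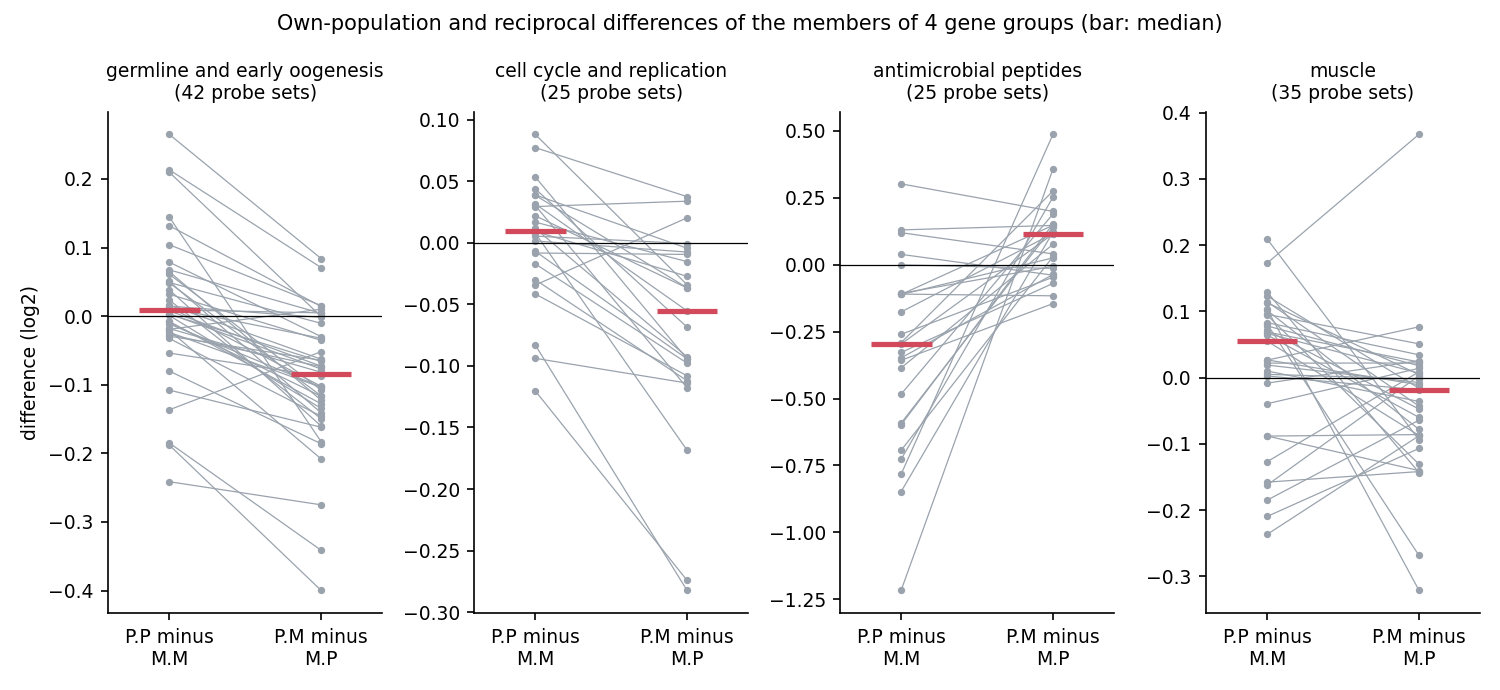
P.P minus M.M difference (left in each panel) and P.M minus M.P difference (right) of every probe set in 4 gene groups, in log2, with lines joining a probe set and red bars at the group median; vertical scales differ between panels. The germline median lies at 0.01 in own-population crosses and -0.08 in reciprocal crosses, and that of antimicrobial peptides at -0.30 and 0.11 (-0.15 and 0.02 without number 1).

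The reciprocal difference was also compared between the batches, that is between the first and the second array of each cross. It differed between batches at 6 probe sets (0.032% called), with the smallest adjusted p at 0.0031, and 1549 had an unadjusted p under 0.05. Femcoat, a chorion gene of the eggshell group, had P.M minus M.P differences of -0.51, -1.35, -0.83 and -0.07 in numbers 1 to 4 of batch 1, and 0.44, 0.48, 0.92 and 1.06 in batch 2. All 4 numbers changed side, and the mean over both batches was 0.02. CG13084, CG13083 and CG31926 likewise were below 0 in every number of batch 1 and above 0 in every number of batch 2. In each of these 4 genes every P.M cross was higher on its batch 2 array, by 0.92 to 1.87 for Femcoat, whose M.P crosses moved by -0.23 to 0.06. CG31681 and CG14957 were called the other way, with batch 2 minus batch 1 differences of -0.64 and -0.89.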

How the data were processed

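Whole-fly RNA of mated females was hybridised to single-colour Affymetrix Drosophila Genome 2.0 arrays, named from the array names in the labels. The deposited values are log2 signals made with RMA and affy (version not given), per the submitters' processing notes. RMA corrects background and forces the arrays to a shared distribution, so a shift of most genes together would not show. Of 18952 probe sets 183 controls were left out and 18769 tested; 13646 had 1 gene in the platform annotation, 402 several and 4721 none, and 13543 were matched to current RefSeq names (Release 6 plus ISO1 MT).

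The 2 arrays of a cross were averaged, and the 4 differences within numbers were fitted with limma 3.58.1 in R 4.3.3 (lmFit and eBayes with an intensity trend, Benjamini-Hochberg adjustment). The numbers pair crosses because reciprocal crosses share the same 2 populations. In the data the deviations of reciprocal crosses correlated at 0.03, 0.10, 0.16 and -0.00, and P.M crosses 2 and 3 correlated best with their own number. An exact sign-flip test of 4 pairs cannot go below 0.125. In simulated data with 200 probe sets changed, the P.M minus M.P fit called 66 of 100 at a difference of 0.5. It called 93 of 100 at 1, with 7 false calls among 18569. The changed probe sets were drawn at random, each with its own spread, and 200 changes ease the adjusted threshold. These shares therefore do not hold for probe sets with a wide spread, such as CG12061 (SE 0.49). In the deposited data 17 probe sets differed by over 1, and 0 were called. No depth applies to arrays, and the number of crosses limits the precision.

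Genes were named by rule: the 10 smallest unadjusted p in each direction with a difference of at least 0.2 in the same direction in all 4 numbers, the 5 largest in each direction without overlap, up to 4 probe sets in each of 35 gene lists, and the genes that an earlier account of these data names. Members, lists and genes were chosen with earlier results of these data known. All lists described are printed with their counts; the others enter only through named genes. Alternatives were the fit without the number, single arrays with batch, each batch alone, dim probe sets left out, renormalization, centring, other moderation, and each number left out. No sequence is printed because none was given.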

Additional observations from a re-analysis of the deposited data

Results flagged for a closer look

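In 13 of 186 sets of 4 crosses, 1 cross stood apart from the others, with a gap over the whole range beyond Dixon's 95% critical value; chance marks about 1 in 20. Cross number 4 stood apart for CG4830 in P.M (0.872), CG7214 in P.M (0.943) and in M.P (0.930), Obp19d in M.P (0.923) and Jhe in M.P (0.960). CG7214 had 9.38 in the P.M cross of number 4, against at most 8.51 in the other P.M crosses, and 9.83 in the M.P cross of number 4, against at most 9.05 in the other M.P crosses. Cross number 1 stood apart for edin in P.M (0.854), NimB2 in P.M (0.909), Galphaq in M.P (0.917), EcR in M.P (0.963) and Akt in M.P (0.944). Cross number 2 stood apart for Cp16 in P.M (0.983) and PPO3 in M.P (0.860), and number 3 for Ugt37B1 in P.M (0.830). In 3 of 50 sets of own-population crosses 1 cross stood apart, M.M cross 1 for edin (0.976) and Mal-A7 (0.833) and P.P cross 2 for Npc2c (0.850).

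The P.M minus M.P difference differed between batches, as batch 2 minus batch 1, by 1.41 for Femcoat, 1.53 for CG13084, 1.53 for CG31926, 1.19 for CG13083, -0.64 for CG31681 and -0.89 for CG14957. Their adjusted p in limma lay between 0.0031 and 0.047. For CG31681 the difference was below 0 in every number of both batches. edin was lower in P.P than in M.M crosses in all 4 numbers and higher in P.M than in M.P crosses in all 4, an own-population minus reciprocal difference of -0.73 that did not pass adjustment in limma (adjusted p = 0.395); without number 1 its P.P minus M.M difference was -0.18.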

How the results depend on the processing

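The count of probe sets with an adjusted p under 0.05 for P.M minus M.P was 0 and stayed 0 without the replicate block, in batch 2 alone, without the 40% dimmest probe sets, after quantile normalization or median centring, and with no intensity trend. It was 6 with the 16 arrays as samples, batch as a term, the cross as a correlated block and no replicate block (CG33281 at 2 probe sets, CG8560, Mal-B1, Zip102B and 1 unnamed). It was 249 (127 higher, 122 lower) with batch and the replicate block as terms, where the 2 arrays of a cross count as separate samples. It was 1 in batch 1 alone (CG18404), 2 with robust moderation (CG7214 and tobi), and 0 to 1 with each number left out (CG32751 without number 1). For the own-population minus reciprocal difference it was 1 in batch 1 alone (Act88F), 15 with robust moderation, retinin and bt among them, and 0 to 5 with each number left out (5 without number 3). For the difference between batches it was 0 with no intensity trend, 1 without the 40% dimmest probe sets, and 0 to 8 with each number left out (0 without number 3).

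Of 1297 values of named genes under the alternatives, 1237 kept direction and side of the threshold, 48 passed it newly (43 of them with batch and the replicate block as terms on single arrays) and 12 turned. The turned values were, in batch 1 alone, Cp16 at -0.28, Send2 at 0.31, Obp56g at 0.087, CG14187 at 0.0012, bt at 0.043 and 1 probe set of sls at 0.0093, and, in batch 2 alone, BomS5 at -0.0053. With each number left out, Send2 ranged from -1.105 to 0.11, Fcp3C from -0.75 to 0.037, CG14187 from -0.51 to 0.21 and Mcm5 from -0.065 to 0.015; without number 4 all of these were above 0. Of 308 values of group medians 294 moved by less than the spread between numbers. The germline and cell cycle medians were among these under every alternative, and those of the eggshell, muscle, antimicrobial, immune recognition, odorant-binding and mitochondrial ribosomal groups moved. The spread between numbers is a wide measure, which leaving out 1 of the 4 can hardly exceed, so staying within it says little about stability. With each number left out, chosen after seeing the data, 104 of 112 own-population values moved by less than the spread between numbers and 8 turned. For single genes a move beyond that spread cannot occur when 1 of 4 values is left out, so only the turns carry information. Those that turned ranged from -0.050 to 0.049 for retinin, -0.0040 to 0.076 for ovo, -0.75 to 0.0062 for BomS5, -0.26 to 0.18 for pirk, -0.053 to 0.16 for GstE5, -0.028 to 0.032 for the germline median and -0.014 to 0.037 for the cell cycle median. Group counts at an unadjusted p under 0.05 also moved with each number left out. They ran from 3 to 11 higher for glutathione transferases and 3 to 9 higher for cytochrome P450. For eye genes they ran from 2 to 8 higher, and for hormone genes from 1 to 10 lower. The causes were not tested. The 4 crosses of each kind limit all tests, and weak probe sets near the low end of the table carry little signal.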
